A study of Mus musculus with 24 samples.

Results

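The samples described here form a series of 3 doses of a MEK inhibitor in mice with colitis: Vehicle at 0, MEKi 0.3 at 0.3 mg/kg and MEKi 1 at 1 mg/kg. They were chosen by the group of each sample's own count file, 4 libraries per dose, and make up 12 of 24 libraries in all. Female SCID mice (C.B-17/Icr-scid/scid, 7 weeks of age), which lack mature lymphocytes, were given 200000 CD4+ T cells from BALB/c spleens that had been cultured for 3 days with concanavalin A at 4 μg/mL and human IL-2 at 10 ng/mL. Groups were formed at day 17 by stool score. MEKi 0.3 and MEKi 1 mice received the inhibitor by mouth in enteric microparticles daily through day 27, and Vehicle mice received 0.5% methylcellulose. Poly(A) RNA of the distal colon at day 28 was sequenced on the Ion Torrent platform. The other libraries were Normal (untreated mice of the same strain), Isotype (transfer and a control antibody) and anti-TNF (transfer and an antibody against TNF). They entered the gene filter, the scaling between libraries and the fit of the spread of each gene. Isotype and Normal also served to build a colitis score, and Normal values are given beside some genes as healthy colon.

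MEK is the kinase that activates ERK, the last step of the RAS-RAF-MEK-ERK cascade. The cascade carries signals from growth factor, antigen and cytokine receptors, and active ERK raises immediate early genes such as Fos and Egr1 and its own inhibitors of the Dusp and Sprouty families. In the T cell transfer model, donor CD4+ T cells expand in a host without lymphocytes and drive a colitis with infiltrating neutrophils and macrophages, a thickened crypt epithelium and loss of mature surface cells. The questions asked of these libraries were which transcripts moved in order with dose, and whether the 2 doses differed from each other.

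Library totals ran from 3175698 to 5840995 counts in the dose series. Colon epithelium was plain in each library, with the epithelial adhesion gene Epcam at 1397 to 1927 CPM (reads of the gene scaled to the effective size of the library). Cd3d, which encodes a CD3 chain of T cells, was found in each of the 12 libraries and had 0 counts in the 4 Normal libraries, which allows up to 0.552 to 1.01 CPM per library. The table of the whole series names 16 of its 24 columns for a sample whose own file holds other values. Of the 12 libraries here, only MEKi 1 replicates 3 and 4 carry the same name in both, and the T cell genes cannot check the order of the dose groups among themselves. Every value below follows the samples' own files, and grouping by the table's names gave 0 genes with a dose trend. No group received microparticles without the drug, so effects of the inhibitor and of its carrier cannot be told apart. In whole colon tissue, fewer cells of a type and less RNA per cell cannot be told apart. The labels do not say that replicates were separate animals, so each p-value measures the spread between these samples.

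Across the 14773 genes tested, 1528 had a called slope over dose (10.3%), 789 higher (5.34%) and 739 lower (5.00%). The slope is the log2 change per dose step, tested with edgeR's quasi-likelihood test and Benjamini-Hochberg adjustment over all genes at a threshold of 0.05. Because the groups are equal in size, the slope rests on MEKi 1 against Vehicle, and MEKi 0.3 enters through the spread around the line. A called slope therefore does not by itself show that the 3 groups were in order. By fitted change from Vehicle, MEKi 0.3 lay between Vehicle and MEKi 1 in 1494 of the 1528, beyond MEKi 1 in 33 and opposite in 1. Scaling by library totals alone gave a dose trend in 559 higher and 806 lower genes. MEKi 1 differed from Vehicle in 1565 genes (10.6%), 898 higher (6.08%) and 667 lower (4.51%). MEKi 0.3 differed from Vehicle in 1 gene (0.00677%), with 2639 genes (17.9%) at an unadjusted p under 0.05. MEKi 1 differed from MEKi 0.3 in 0 genes (0%), with 641 genes (4.34%) at an unadjusted p under 0.05 in edgeR and 2 genes past the threshold in DESeq2. The one edgeR fit with a call for this difference, 1 gene, left out MEKi 0.3 replicate 3. The share of genes without any overlap between libraries was 19.2% for MEKi 1 and Vehicle, 7.85% for MEKi 0.3 and Vehicle, and 2.06% for MEKi 1 and MEKi 0.3.

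These counts depended on single libraries. The count of 1528 genes with a dose trend became 112 without Vehicle replicate 4, 341 without Vehicle replicate 1, 710 without Vehicle replicate 2, 278 without MEKi 1 replicate 1 and 392 without MEKi 1 replicate 3. It became 2603 without MEKi 1 replicate 2. The 1565 genes of MEKi 1 against Vehicle became 324, 812 and 128 without Vehicle replicates 1, 2 and 4, 43 and 220 without MEKi 1 replicates 1 and 3, and 2369 without MEKi 1 replicate 2. For MEKi 0.3 against Vehicle, leaving out MEKi 0.3 replicate 4 gave 1130 genes where 1 was found with it, Vehicle replicate 4 gave 0 and MEKi 1 replicate 2 gave 4. Same-numbered MEKi 0.3 and Vehicle libraries deviated together, and a fit of only these 8 libraries gave 405 genes with the replicate number as a block and 0 without it, both chosen after seeing the data. Of the 72 genes named below with a called slope, 0 changed sign under any alternative recomputed for them and 21 kept the call without each of the 12 libraries in turn.

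**Figure D1:**
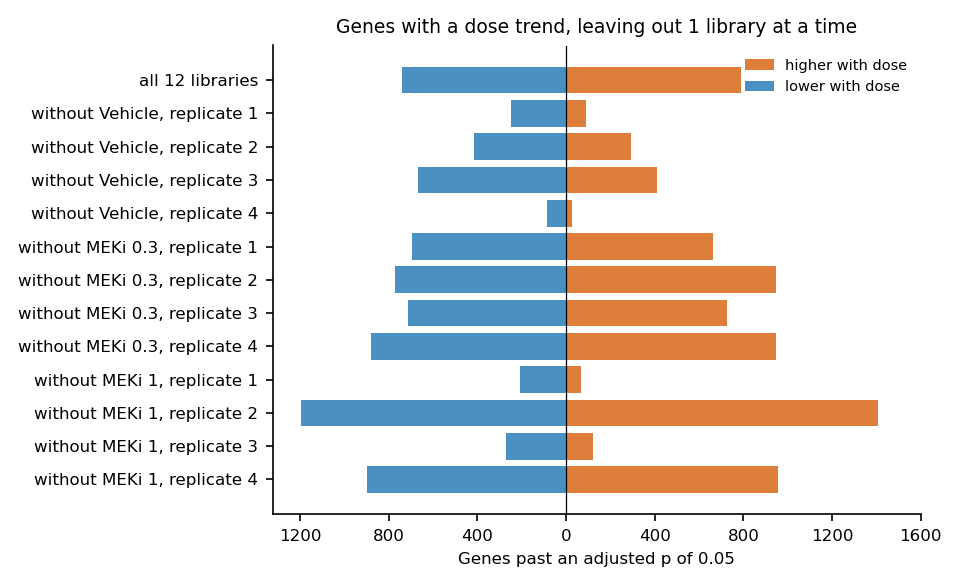
Number of genes with a dose trend past an adjusted p of 0.05 (bars, right for higher and left for lower with dose) in the fit of all libraries and in fits that leave out 1 library each. The bars are shortest without Vehicle replicate 4 (112 genes) and longest without MEKi 1 replicate 2 (2603 genes).

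A colitis score placed each library between healthy and inflamed colon. It is the mean log2 CPM of 1192 genes higher in Isotype than in Normal minus that of 1446 genes lower, so no library of the dose series chose its genes. The 4 Vehicle libraries scored 2.21, 2.09, 1.78 and 2.19 in replicates 1 to 4. MEKi 0.3 libraries scored 0.77, 0.55, 0.59 and 2.33, and MEKi 1 libraries -0.24, 1.40, -0.02 and 0.59. MEKi 0.3 replicates 1 to 3 lay below all Vehicle libraries while replicate 4 lay above all of them, and all 4 MEKi 1 libraries lay below Vehicle. Normal libraries scored -2.08 to -1.65, below every library of the dose series. The score fell by 0.82 per dose step (exact permutation test over 34650 arrangements, two-sided p = 0.00756, adjusted over 4 tests 0.0302). MEKi 1 minus Vehicle was -1.64 (exact p = 0.0286, the smallest that 4 against 4 can give, adjusted 0.0571), and MEKi 0.3 minus Vehicle was -1.01 (exact p = 0.143, adjusted 0.19). MEKi 1 minus MEKi 0.3 was -0.63 (exact p = 0.371, adjusted 0.371). The adjusted p of the colitis score trend was over 0.05 in 5 of the 12 fits that left out a library, namely Vehicle replicates 1, 2 and 4 (0.0651, 0.0565 and 0.0648) and MEKi 1 replicates 1 and 3 (0.0571 each).

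**Figure D2:**
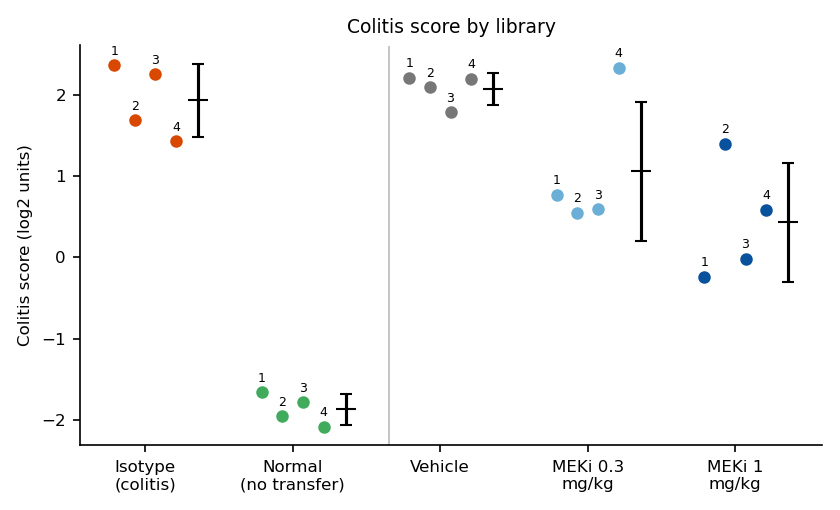
Colitis score of each library (points, numbered by replicate) with the mean and SD of each group (black), on a log2 scale. MEKi 0.3 replicate 4, at 2.33, lies above the Vehicle libraries, and the other 3 MEKi 0.3 libraries lie between 0.55 and 0.77.

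Full order was the strictest pattern, with every library of a group beyond every library of the next. It held for 21 genes (0.142%), 8 higher (0.0542%) and 13 lower (0.088%) with dose. Cldn4, a claudin of epithelial tight junctions (chr5:134945123-134946934, GRCm38), had the smallest trend p of them. It had 138, 160, 154 and 147 CPM in Vehicle, 91.5, 96.0, 52.4 and 106 CPM in MEKi 0.3, and 44.5, 46.3, 39.4 and 34.3 CPM in MEKi 1. Normal libraries had 35.3 to 83.9 CPM, a range that held 3 of the 4 MEKi 1 libraries. Its slope was -0.93 ± 0.13 (SE, edgeR adjusted p = 0.00259), or 0.525-fold per step. Aif1, the macrophage protein IBA1 (chr17:35170986-35176083), averaged 44.2 ± 7.16 CPM in Vehicle, 24.9 ± 6.19 in MEKi 0.3 and 16.8 ± 4.48 in MEKi 1 (SD, n = 4 each), with a slope of -0.70 ± 0.12 (edgeR adjusted p = 0.00526). Anxa8, a calcium-dependent membrane-binding annexin, averaged 231 ± 16.9 CPM in Vehicle, 138 ± 13.3 in MEKi 0.3 and 102 ± 15.1 in MEKi 1. Lgals1, the galactoside-binding lectin galectin-1, averaged 116 ± 24.1 CPM in Vehicle, 75.7 ± 11.3 in MEKi 0.3 and 53.7 ± 2.84 in MEKi 1. For both, the highest library of each dose was below the lowest of the dose before it. The rising genes moved less. Ddi2, an aspartic protease that activates the transcription factor NRF1, had a slope of 0.26 ± 0.06, and Erlin2, a protein of the endoplasmic reticulum membrane, 0.22 ± 0.05. Of these 6 genes, 5 kept the call without each library in turn, and Lgals1 lost it without Vehicle replicate 4.

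Promoter sequence is shown for 4 falling genes that hold a binding motif of transcription factors often placed downstream of ERK or in myeloid cells. These genes were picked by hand and do not show how common the motifs are. Each run covers 250 bases before the start and 50 after it, 5′ to 3′ on the gene's strand, from RefSeq on GRCm38.p6. Capitals mark TGACTCA, the AP-1 motif bound by Fos and Jun proteins, or GAGGAAGT, a motif of PU.1 and related ETS factors, on either strand. Cldn4 (chr5:134946885-134947184, minus strand) and Mmp3 (chr9:7445572-7445871, plus strand), a matrix protease, hold the AP-1 motif. S100a8 (chr3:90668821-90669120, plus strand), a calprotectin subunit of neutrophils, and Cd53 (chr3:106790100-106790399, minus strand), a leukocyte tetraspanin, hold GAGGAAGT.
Cldn4: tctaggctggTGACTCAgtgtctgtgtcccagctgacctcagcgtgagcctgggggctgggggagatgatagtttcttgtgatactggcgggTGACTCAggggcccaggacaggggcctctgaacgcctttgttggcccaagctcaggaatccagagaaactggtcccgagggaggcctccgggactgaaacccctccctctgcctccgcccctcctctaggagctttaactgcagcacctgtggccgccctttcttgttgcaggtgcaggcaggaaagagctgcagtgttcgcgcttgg
Mmp3: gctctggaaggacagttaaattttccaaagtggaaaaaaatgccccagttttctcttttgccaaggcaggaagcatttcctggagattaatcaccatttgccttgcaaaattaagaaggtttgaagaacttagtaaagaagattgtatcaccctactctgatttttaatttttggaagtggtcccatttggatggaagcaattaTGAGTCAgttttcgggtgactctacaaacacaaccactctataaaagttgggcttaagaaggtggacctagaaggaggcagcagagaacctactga
S100a8: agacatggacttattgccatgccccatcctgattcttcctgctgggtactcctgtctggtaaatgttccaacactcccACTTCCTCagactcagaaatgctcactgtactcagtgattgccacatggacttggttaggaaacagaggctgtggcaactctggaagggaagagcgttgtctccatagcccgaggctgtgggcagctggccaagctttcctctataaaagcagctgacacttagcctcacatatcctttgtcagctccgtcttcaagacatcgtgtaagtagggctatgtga
Cd53: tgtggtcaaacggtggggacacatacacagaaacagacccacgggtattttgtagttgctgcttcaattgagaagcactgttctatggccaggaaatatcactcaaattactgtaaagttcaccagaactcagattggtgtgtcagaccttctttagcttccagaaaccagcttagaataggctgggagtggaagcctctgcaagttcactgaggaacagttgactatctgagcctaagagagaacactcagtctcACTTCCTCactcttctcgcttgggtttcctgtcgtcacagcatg
Of the 739 genes lower with dose, 532 had a promoter in the table by symbol, and 47 of these held GAGGAAGT (8.83%). It was in 12 of 595 promoters of genes higher with dose (2.02%), 326 of 10152 promoters of tested genes (3.21%) and 887 of all 27025 promoters (3.28%). The AP-1 motif was in 25 promoters of lower genes (4.70%), 29 of higher genes (4.87%), 395 of tested genes (3.89%) and 1396 of all promoters (5.17%). A related ETS motif, CCGGAAGT, was in 18 promoters of lower genes (3.38%), 31 of higher genes (5.21%), 798 of tested genes (7.86%) and 1081 of all promoters (4.00%). The motifs were counted separately, and these shares are descriptions without a test.

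Neutrophil transcripts had the steepest falls of the immune lists. Of 18 neutrophil markers, 15 fell with dose and 0 rose, against 5.00% of all genes called lower. The median slope was -1.38, against 0.00 over all genes tested. The summed level of the list had a median of 1605 CPM in Vehicle (1369 to 1952), 619 in MEKi 0.3 (411 to 1642) and 598 in MEKi 1 (308 to 904). S100a9, the other calprotectin subunit (chr3:90692630-90695721), had 279, 389, 219 and 668 CPM in Vehicle, 23.2, 10.3, 62.1 and 375 CPM in MEKi 0.3, and 2.98, 50.4, 14.3 and 28.4 CPM in MEKi 1. Only replicate 4 of MEKi 0.3 was inside the Vehicle range, and no MEKi 1 library was. Its slope was -1.99 ± 0.51 (edgeR adjusted p = 0.0245), and Normal libraries had 0 to 0.673 CPM. S100a8 followed with a slope of -1.32 ± 0.35 (edgeR adjusted p = 0.028). Fpr2, a receptor for formylated bacterial peptides, had 21.5, 14.1, 11.96 and 35.7 CPM in Vehicle, 4.85, 5.47, 4.97 and 24.98 in MEKi 0.3 and 1.83, 5.86, 2.046 and 1.73 in MEKi 1. Mcemp1, a membrane protein of neutrophils and mast cells, had a slope of -1.28 ± 0.24, and Clec4e, the receptor Mincle for mycobacterial glycolipids, -1.83 ± 0.44. The members without a called slope were Mmp9 at -0.73, Lrg1 at -0.57 and Ly6g at -0.05. The count of 15 became 0 without Vehicle replicate 4, 6 without Vehicle replicate 1, 4 without MEKi 1 replicate 1 and 5 without MEKi 1 replicate 3.

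Of 21 tested monocyte and macrophage markers, 14 fell and 0 rose, against 5.00% of all genes called lower. The median slope was -0.66. Their summed level had a median of 3955 CPM in Vehicle (3425 to 5264), 2759 in MEKi 0.3 (2589 to 3795) and 1929 in MEKi 1 (972 to 2851). Tyrobp, the signalling adaptor DAP12 (chr7:30413782-30417582), had 113, 109, 91.0 and 147 CPM in Vehicle, 59.5, 65.7, 48.8 and 69.4 CPM in MEKi 0.3, and 30.5, 52.3, 38.9 and 15.9 CPM in MEKi 1. All MEKi 0.3 and MEKi 1 libraries lay below all Vehicle libraries, while MEKi 1 replicate 2 lay inside the MEKi 0.3 range. Its slope was -0.86 ± 0.13 (edgeR adjusted p = 0.00307). Fcer1g, the common chain of Fc receptors, had a slope of -0.79 ± 0.13 (edgeR adjusted p = 0.00587). Tyrobp, Fcer1g and Aif1 kept the call without each library in turn, whereas the list's count became 3 without Vehicle replicate 4. Irg1, which makes itaconate in activated macrophages, had a slope of -1.51 ± 0.30 and lost the call without Vehicle replicate 4. Cx3cr1, the fractalkine receptor of resident macrophages, had a slope of 0.11, and Mrc1, the mannose receptor, -0.10, both without a call.

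**Figure D3:**
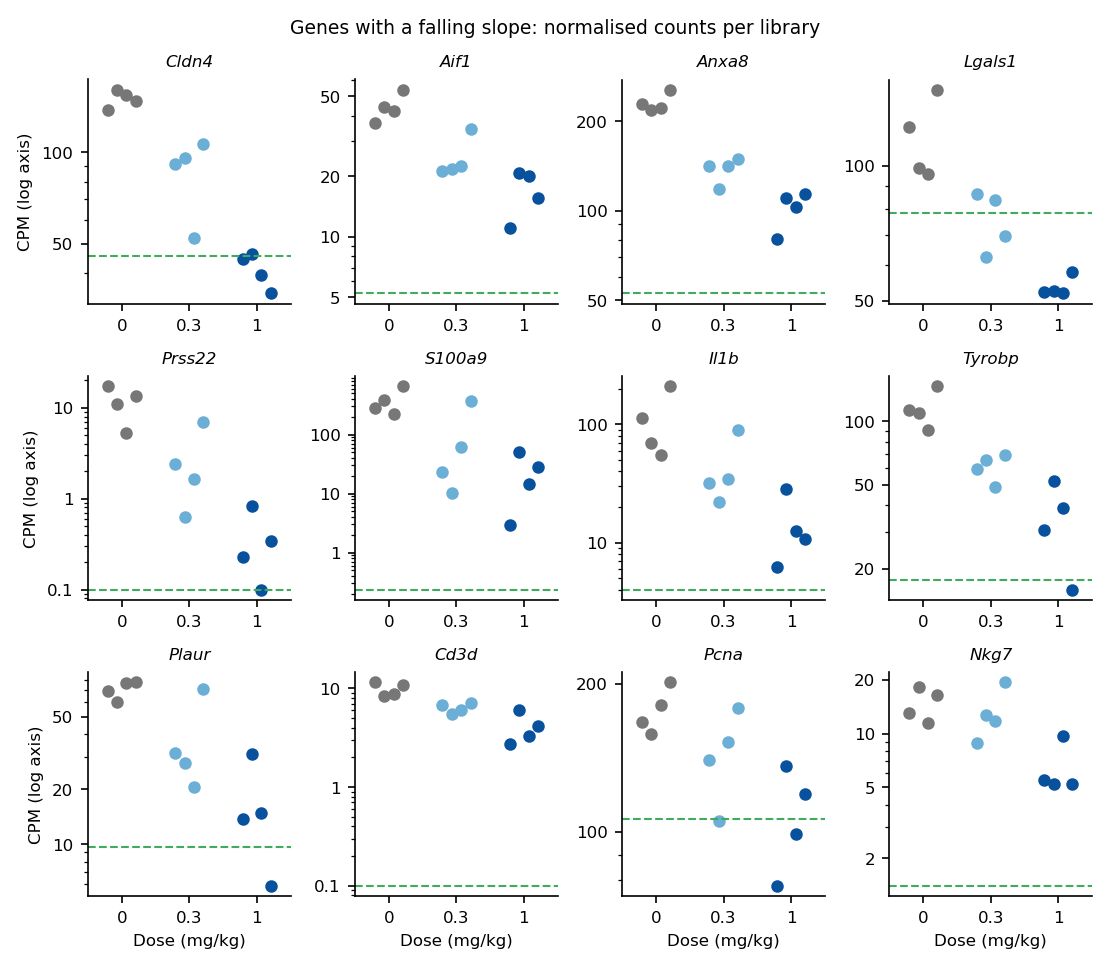
Normalised counts (CPM, log axis) of 12 genes with a called falling slope in each library of Vehicle (0), MEKi 0.3 and MEKi 1, points in the order of replicates 1 to 4. The dashed line is the Normal median, and values under 0.1 CPM are drawn at 0.1. In Cldn4, Aif1, Anxa8 and Lgals1 no library of a dose overlaps the next dose.

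The summed level of T cell genes was lower with dose but stayed far above Normal colon. Not every member is limited to the transferred cells, as Cd4 had 5.41 to 9.23 CPM in Normal. Of 22 T cell genes, 12 fell and 0 rose, against 5.00% of all genes called lower. All 22 slopes were negative, as were 7321 of the 14773 over all genes tested, and the median slope was -0.51. The summed level had a median of 383 CPM in Vehicle (298 to 414), 250 in MEKi 0.3 (235 to 353) and 175 in MEKi 1 (120 to 270), against 30.7 in Normal. Cd3d had 11.6, 8.35, 8.72 and 10.8 CPM in Vehicle, 6.76, 5.47, 6.001 and 7.03 in MEKi 0.3, and 2.75, 6.07, 3.32 and 4.16 in MEKi 1. MEKi 0.3 was below Vehicle without overlap, and only MEKi 1 replicate 2 reached the MEKi 0.3 range. Its slope was -0.63 ± 0.15 (edgeR adjusted p = 0.0171). Lck, the kinase of the T cell receptor, had a slope of -0.53 ± 0.13, and Ptprc, the leukocyte phosphatase CD45, -0.54 ± 0.13. The count of 12 became 0 without Vehicle replicate 4 or MEKi 1 replicate 1, 3 without Vehicle replicate 1 or 2, 4 without MEKi 1 replicate 3 and 7 without MEKi 1 replicate 4. Of 9 cytotoxic and NK cell genes, 2 fell, against the same 5.00% of all genes. Prf1, the pore-forming perforin, had a slope of -0.87 ± 0.23. Nkg7, a cytotoxic granule protein (chr7:43437138-43438246), is given with the difference between doses. That count of 2 became 0 without Vehicle replicate 4 or MEKi 1 replicate 1, and 1 without Vehicle replicate 1 or MEKi 1 replicate 3. Ifng, the cytokine of type 1 T cells, had 0.458 to 3.35 CPM in MEKi 1 and 1.71 to 5.68 CPM in Vehicle, and its slope of -0.60 ± 0.38 was not called (edgeR adjusted p = 0.288).

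Of 30 interferon-gamma response genes, 1 fell and 0 rose, against 5.00% lower and 5.34% higher over all genes. The median slope was -0.02. Summed, the list had 6210 to 6922 CPM in Vehicle and 4701 to 8814 in MEKi 0.3. MEKi 1 libraries lay on both sides of Vehicle, with 3649, 7394, 4037 and 7556 CPM in replicates 1 to 4. Tap1, the peptide transporter of MHC class I (chr17:34187556-34197225, chosen after its values were seen), had 316, 387, 341 and 335 CPM in Vehicle, 419, 308, 306 and 352 in MEKi 0.3, and 242, 417, 256 and 438 in MEKi 1. The 3 groups overlapped, and all 12 libraries were far above the 20.7 to 43.7 CPM of Normal. Its slope was -0.01 ± 0.11 (edgeR adjusted p = 0.946). The member that fell was Cd274, the checkpoint ligand PD-L1, with a slope of -0.44 ± 0.13 (edgeR adjusted p = 0.0412). It lost the call without Vehicle replicates 1, 2 or 4 or MEKi 1 replicates 1, 3 or 4. The interferon-induced chemokine gene Cxcl11 had the lowest slope of the list, -0.81 ± 0.27, and missed the threshold (edgeR adjusted p = 0.0562). It passed under 5 other settings, DESeq2 and limma-voom with sample weights among them, and without MEKi 1 replicate 4. Cxcl10, a ligand of the same receptor, had -0.53 ± 0.23 (edgeR adjusted p = 0.12). Of 10 MHC class II genes and of 22 type I interferon genes, 0 changed in either direction, with median slopes of -0.07 and 0.09. Without MEKi 1 replicate 4, 3 type I interferon genes fell. H2-Ab1, a class II beta chain, had 1406, 1911, 1667 and 1345 CPM in Vehicle, 1343, 1616, 1235 and 1507 in MEKi 0.3, and 1376, 1362, 1126 and 1345 in MEKi 1, against 137 to 154 CPM in Normal. A missed threshold does not show that these levels were equal.

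Inflammatory cytokines fell in part. Of 23 TNF and NF-kB target genes, 6 fell and 0 rose, against 5.00% of all genes called lower. The median slope was -0.32. Il1b, the inflammasome-processed cytokine interleukin-1 beta (chr2:129364569-129371164), had 113, 69.3, 55.6 and 212 CPM in Vehicle, 31.7, 21.9, 34.8 and 89.97 in MEKi 0.3, and 6.19, 28.3, 12.5 and 10.7 in MEKi 1. Its slope was -1.46 ± 0.27 (edgeR adjusted p = 0.00774). No MEKi 1 library reached the Vehicle range, and MEKi 0.3 replicate 4 lay inside it. Il1a, its sister cytokine, had a slope of -1.37 ± 0.29, and both kept the call without each library in turn. Tnf itself had 13.5, 40.6, 9.72 and 12.8 CPM in MEKi 1 and 46.7, 44.1, 25.9 and 32.9 CPM in Vehicle, and its slope of -0.47 ± 0.25 was not called (edgeR adjusted p = 0.202). The slope of Tnf was called with limma-voom and without MEKi 1 replicate 2. The list's count of 6 became 2 without Vehicle replicate 4, 3 without Vehicle replicate 1 or MEKi 1 replicate 1, and 11 without MEKi 1 replicate 2. Of 19 chemokine genes, 6 fell and 1 rose, against 5.00% lower and 5.34% higher over all genes. The median slope was -0.72. Cxcl16, a membrane-bound chemokine, had 171, 178, 122 and 185 CPM in Vehicle, 81.8, 89.6, 87.9 and 149 in MEKi 0.3, and 49.97, 85.6, 51.4 and 46.1 in MEKi 1, with a slope of -0.74 ± 0.12. Ccl2, which recruits monocytes, had a slope of -0.97 ± 0.21, and Cxcl13, which recruits B cells, -0.78 ± 0.16. The chemokine gene that rose was Ccl28, and its call was lost without Vehicle replicates 1, 2 or 4 or MEKi 1 replicates 1 or 3. Cxcl16 kept its call without each library, and the count of 6 ran from 1 without Vehicle replicate 4, over 3 without Vehicle replicate 1 or MEKi 1 replicates 1 or 3, to 10 without MEKi 0.3 replicate 4.

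Of 19 matrix proteases and inhibitors, 6 fell and 0 rose, against 5.00% of all genes called lower. The median slope was -0.70. Mmp3, whose promoter is shown above, had 94.8, 41.8, 15.0 and 101 CPM in Vehicle, 9.88, 3.79, 13.2 and 66.5 in MEKi 0.3, and 1.83, 7.75, 2.81 and 4.16 in MEKi 1. The slope was -1.88 ± 0.42 (edgeR adjusted p = 0.0148), and it lost the call without Vehicle replicate 4 or MEKi 1 replicate 1. Plaur, the urokinase receptor, had a slope of -1.03 ± 0.21 and kept the call without each library. Timp1, an inhibitor of matrix metalloproteases, had -1.16 ± 0.28. The count of 6 became 1 without Vehicle replicate 4 or MEKi 1 replicate 1, 2 without Vehicle replicate 1 or MEKi 1 replicate 3, and 11 without MEKi 1 replicate 2. Of 22 collagen and fibroblast matrix genes, 9 fell and 0 rose, against the same 5.00% of all genes, with a median slope of -0.31. Sparc, a collagen-binding matrix glycoprotein, had a slope of -0.62 ± 0.13, and Col4a1, a basement membrane collagen, -0.54 ± 0.12. That count became 0 without Vehicle replicate 4, 4 without Vehicle replicate 1 or MEKi 1 replicate 1, and 5 without MEKi 1 replicate 3. Of 13 endothelial genes, 3 fell, again against 5.00% of all genes. Among them was Madcam1, the gut vessel address for lymphocytes, at -0.64 ± 0.12. The 3 became 1 without Vehicle replicate 1 or 4.

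Among genes of at least 5 CPM with no overlap between MEKi 1 and Vehicle, the steepest falls belonged to genes that were low in healthy colon. Prss22, a tryptase-like serine protease (chr17:23993534-24000722), had 17.3, 11.01, 5.23 and 13.4 CPM in Vehicle and 2.43, 0.631, 1.66 and 7.03 CPM in MEKi 0.3. MEKi 1 libraries had 0.229, 0.837, 0 and 0.347 CPM, and the 0 counts of replicate 3 allow up to 0.765 CPM. The slope was -2.30 ± 0.41 (edgeR adjusted p = 0.00774), called without each library in turn. The fitted slope of so low a gene depends on the prior count. Atg9b, a membrane protein of autophagy, had a slope of -1.90 ± 0.37. Hp, the haemoglobin-binding protein haptoglobin, had a slope of -1.96 ± 0.46, and Spink6, an inhibitor of kallikrein proteases, -1.72 ± 0.43. Atg9b kept its call without each library, whereas Hp and Spink6 lost theirs without Vehicle replicate 4 or MEKi 1 replicates 1 or 3, and Spink6 also without Vehicle replicate 1.

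Transcripts that report ERK activity were read in whole tissue at day 28, the day after the last dose. Each list of this paragraph had 0 or 1 called member. In lists this short, such counts are near the shares over all genes, 5.34% higher and 5.00% lower. Of 18 ERK feedback and output genes, 1 fell and 0 rose, with a median slope of -0.05. Their summed level was 553 to 588 CPM in Vehicle, 401 to 601 in MEKi 0.3 and 397 to 548 in MEKi 1. Normal libraries had 350 to 449 CPM. The highest MEKi 1 sum was just under the lowest Vehicle sum. Of all genes tested, 19.2% had no overlap between these 2 groups, and a sum rests mostly on its most abundant members. Dusp6, the phosphatase that ERK induces against itself (chr10:99263231-99267489), had 56.4, 65.9, 54.1 and 54.0 CPM in Vehicle, 75.9, 88.8, 43.9 and 66.5 in MEKi 0.3, and 60.3, 82.3, 60.9 and 58.2 in MEKi 1. The groups overlapped, and the slope was 0.09 ± 0.11 (edgeR adjusted p = 0.592). Etv4 and Etv5, ETS factors that ERK induces, had slopes of -0.27 ± 0.16 and -0.02 ± 0.17, and Spry4, a Sprouty inhibitor, -0.07 ± 0.14. The called member was Ier3, an immediate early survival gene, with a slope of -0.51 ± 0.13 (edgeR adjusted p = 0.0185). It had 19.0, 25.3, 18.4 and 17.7 CPM in MEKi 1 and 43.4, 36.6, 30.7 and 50.6 CPM in Vehicle, without overlap, and lost the call without Vehicle replicate 1 or 4. Other members had slopes that missed the threshold in either direction, such as Dusp4 at -0.62 ± 0.25, Spry2 at 0.31 ± 0.11 and Etv1 at 0.67 ± 0.24. Spry2 and Etv1 passed with DESeq2, with limma-voom and without MEKi 1 replicate 4, and 2 ERK output genes fell without MEKi 1 replicate 2. Ccnd1, cyclin D1, which ERK sustains through G1, had -0.19 ± 0.12. Of 15 immediate early genes, 0 changed, and 1 rose without MEKi 1 replicate 2. Fos, a partner in the classical AP-1 dimer, had 165 to 198 CPM in MEKi 1 and 140 to 225 CPM in Vehicle, and Egr1, a zinc finger factor, had a slope of -0.23 ± 0.17. Of 17 components of the cascade, 1 rose: Map2k1, which encodes MEK1, at 0.25 ± 0.08. Of 9 EGF receptors and ligands, 1 rose: Erbb2, a receptor kinase upstream of RAS, at 0.41 ± 0.12. Both lost the call without any 1 Vehicle library and without MEKi 1 replicates 1 or 3. The cascade had 2 rising genes without MEKi 1 replicate 4. The EGF list had 2 rising and 1 falling without MEKi 1 replicate 2, and 2 falling without MEKi 0.3 replicate 4. Areg, the ligand amphiregulin, had -0.65 ± 0.23 (edgeR adjusted p = 0.0625). Protein phosphorylation was not measured.

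**Figure D4:**
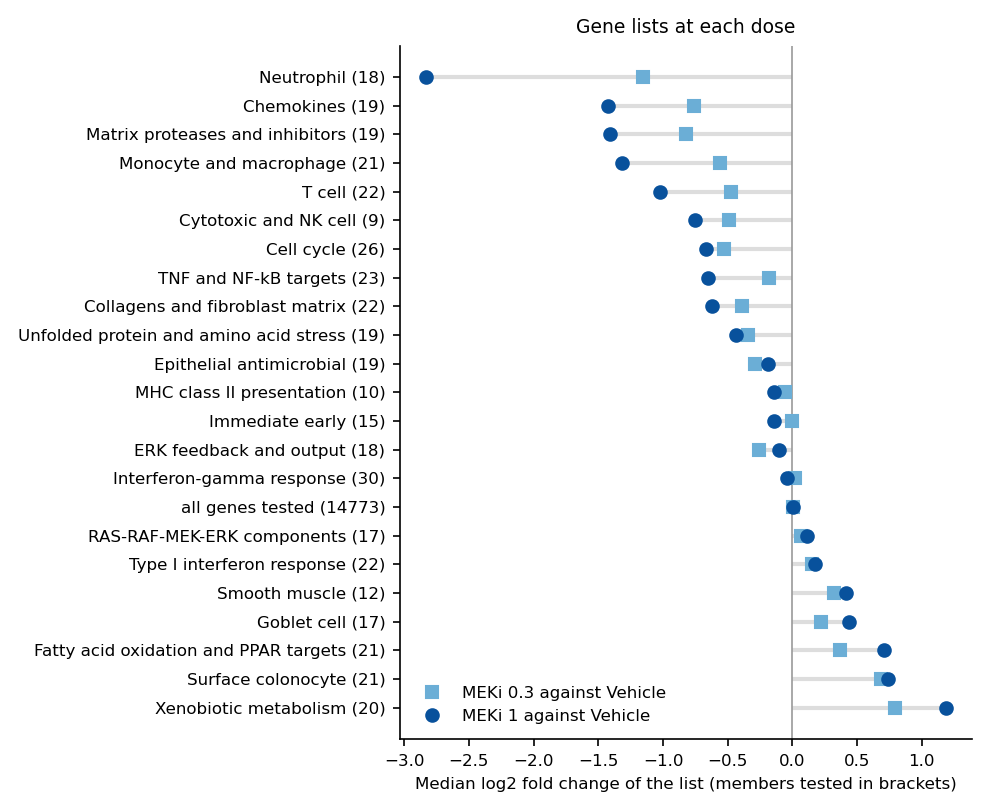
Median log2 fold change of selected gene lists and of all genes tested in MEKi 0.3 (squares) and MEKi 1 (circles) against Vehicle, both on the same Vehicle libraries, with the number of members tested in brackets. Of the lists drawn, neutrophil genes lie farthest left, at -1.15 and -2.83, and xenobiotic metabolism genes farthest right, at 0.79 and 1.19. Other lists, the pancreas and adipocyte genes among them, are not drawn.

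The 8 highest slopes named here belonged to genes that all averaged more in Normal than in Vehicle libraries. Selenbp1, a selenium-binding methanethiol oxidase of mature enterocytes (chr3:94933083-94944758), had 95.004, 204, 282 and 121 CPM in Vehicle, 901, 1255, 959 and 125 in MEKi 0.3, and 1645, 462, 1354 and 1496 in MEKi 1. MEKi 0.3 replicate 4 stayed inside the Vehicle range, and MEKi 1 replicate 2 was the lowest of its group. Its slope was 1.41 ± 0.39 (edgeR adjusted p = 0.0318). Slc37a2, a sugar phosphate carrier, had 1.45 ± 0.42. Abca8a, a lipid transporter, had 1.44 ± 0.37 and Maob, monoamine oxidase B, 1.20 ± 0.36. Nags, which makes the activator of the urea cycle, had 1.40 ± 0.35, Cyp2d12, a cytochrome P450, 1.74 ± 0.54, and Tnni1, a troponin of slow muscle, 1.47 ± 0.44. Zan, the sperm protein zonadhesin, had 1.39 ± 0.41. All 8 lost the call without Vehicle replicate 1 or 4 or MEKi 1 replicates 1 or 3.

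Surface colonocyte, goblet cell and xenobiotic metabolism genes each had 2 members called higher. These shares were above the 5.34% of all genes called higher, but each rested on 2 genes. Of 21 surface colonocyte genes, 2 rose and 0 fell, with 20 positive slopes and a median of 0.37. Over all genes tested, 7452 of 14773 slopes were positive. Car2, a carbonic anhydrase, had a slope of 0.56 ± 0.15 (edgeR adjusted p = 0.023), and Scnn1a, a subunit of the epithelial sodium channel, 0.37 ± 0.12 (edgeR adjusted p = 0.0483). Car4, another carbonic anhydrase, had 1488, 423, 1422 and 1073 CPM in MEKi 1 and 288, 517, 451 and 418 CPM in Vehicle, with a slope of 0.70 ± 0.22 (edgeR adjusted p = 0.0502). The called colonocyte genes numbered 12 without MEKi 1 replicate 2, 1 without Vehicle replicate 2 or 3 or MEKi 0.3 replicate 1, and 0 without Vehicle replicates 1 or 4 or MEKi 1 replicates 1 or 3. Of 17 goblet cell genes, 2 rose and 0 fell, with a median slope of 0.22. Atoh1, the factor that commits crypt cells to the secretory lineage (chr6:64729125-64731245), had 40.1, 29.2, 42.6 and 25.4 CPM in Vehicle, 71.9, 69.7, 77.2 and 35.7 in MEKi 0.3, and 83.0, 50.7, 98.5 and 73.9 in MEKi 1, against 64.0 to 83.7 CPM in Normal. Its slope was 0.58 ± 0.12 (edgeR adjusted p = 0.00774), called without each library. Muc3, a membrane mucin, had 0.57 ± 0.17. The count of 2 was 6 without MEKi 1 replicate 2, 4 without MEKi 0.3 replicate 4, and 1 without any 1 Vehicle library or MEKi 1 replicates 1, 3 or 4. Of 20 xenobiotic metabolism genes, 2 rose, the glutathione transferase gene Gstm1 at 0.68 ± 0.18 and the alcohol dehydrogenase gene Adh1 at 0.84 ± 0.26. That count was 0 without Vehicle replicates 1, 2 or 4 or MEKi 1 replicates 1 or 3, 1 without Vehicle replicate 3, 4 without MEKi 0.3 replicates 2 or 3, and 8 without MEKi 1 replicate 2.

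Fatty acid oxidation and PPAR targets held the most called members of any rising list. Of 21 genes, 9 rose and 1 fell, against 5.34% higher and 5.00% lower over all genes. The median slope was 0.35. Acadvl, the dehydrogenase of very long chain fatty acids, had 140, 151, 165 and 145 CPM in Vehicle, 188, 215, 189 and 166 in MEKi 0.3, and 265, 187, 238 and 239 in MEKi 1. MEKi 0.3 and MEKi 1 libraries all exceeded Vehicle, and the slope was 0.31 ± 0.06 (edgeR adjusted p = 0.00774). Hadh, a later enzyme of the same pathway, had 0.51 ± 0.13. The member that fell was Angptl4, a secreted inhibitor of lipoprotein lipase, at -1.36 ± 0.27, and both it and Acadvl kept the call without each library. The 9 became 1 without Vehicle replicates 1 or 4 or MEKi 1 replicates 1 or 3, 3 without Vehicle replicate 2 and 14 without MEKi 1 replicate 2.

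Of 19 epithelial defence genes, 1 rose and 2 fell, with a median slope of -0.09. These counts are near the shares over all genes, 5.34% higher and 5.00% lower. Pigr, the receptor that carries IgA across the epithelium (chr1:130826684-130852249), had 1538, 2217, 2553 and 1583 CPM in Vehicle, 4799, 4853, 5042 and 1787 in MEKi 0.3, and 5798, 3664, 5970 and 5075 in MEKi 1. Its slope was 0.69 ± 0.18 (edgeR adjusted p = 0.0225). The levels in MEKi 1 were close to the 3807 to 5353 CPM of Normal. Saa3, an acute phase serum amyloid, had a slope of -1.46 ± 0.40, and Lcn2, which binds bacterial siderophores, -1.06 ± 0.32. All 3 lost the call without Vehicle replicate 1 or 4 or MEKi 1 replicates 1 or 3, Lcn2 also without Vehicle replicates 2 or 3 or MEKi 1 replicate 4. Without MEKi 1 replicate 2, 4 members rose, and 2 rose without MEKi 0.3 replicates 2 or 4. MEKi 0.3 replicate 4 had 267 CPM of Saa3 and 264 CPM of Lcn2, inside the Vehicle ranges of 134 to 394 and 170 to 345 CPM.

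**Figure D5:**
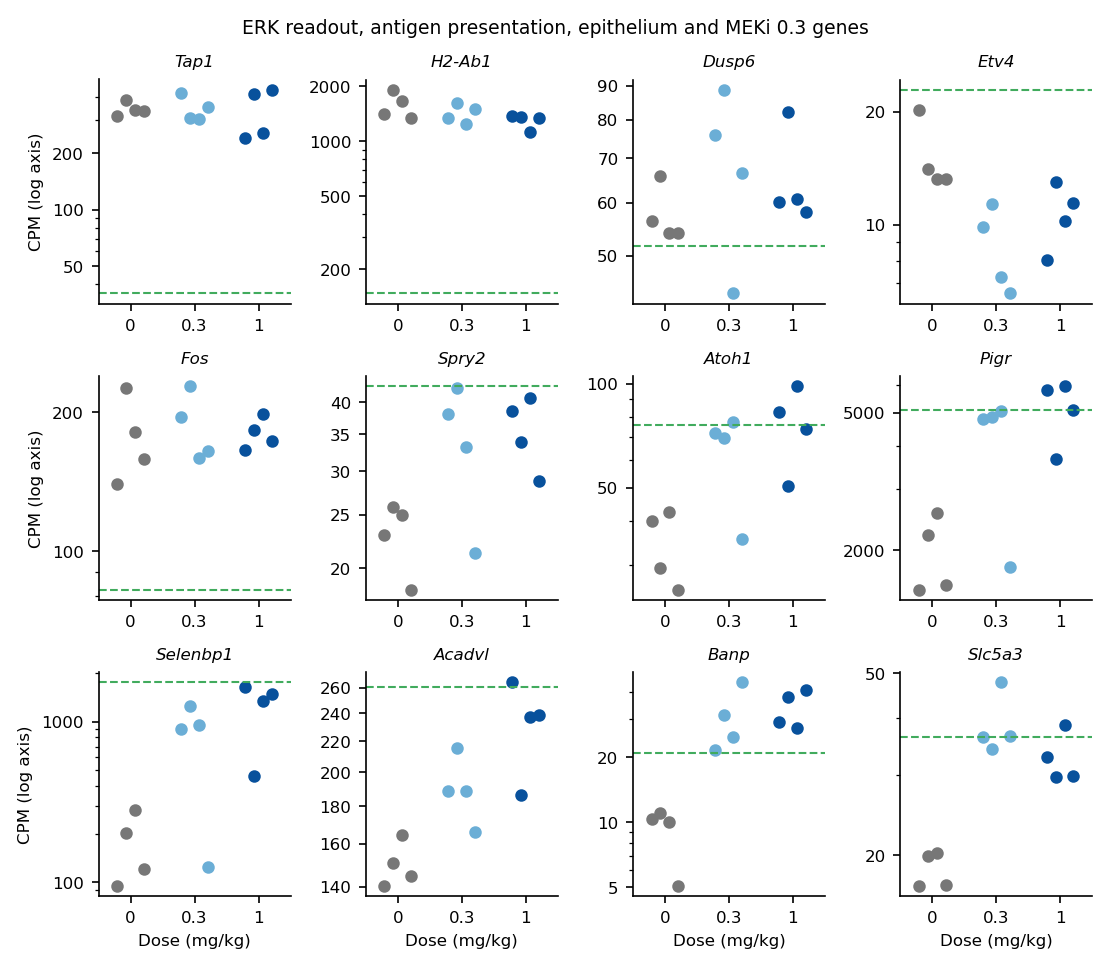
Normalised counts (CPM, log axis) in each library of Vehicle (0), MEKi 0.3 and MEKi 1, in the order of replicates 1 to 4, with the Normal median dashed. Tap1, H2-Ab1, Dusp6, Etv4, Fos and Spry2 have no called slope, Atoh1, Pigr, Selenbp1, Acadvl, Banp and Slc5a3 have a rising one, and replicate 4 is the lowest MEKi 0.3 point in Spry2, Atoh1, Pigr, Selenbp1 and Acadvl.

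Of 26 cell cycle genes, 3 fell and 0 rose, against 5.00% of all genes called lower. The median slope was -0.34, and all 26 slopes were negative, as were 7321 of the 14773 over all genes tested. Pcna, the sliding clamp of DNA replication, had 77.7, 136, 99.2 and 120 CPM in MEKi 1 and 167, 158, 181 and 202 CPM in Vehicle, with a slope of -0.36 ± 0.10 (edgeR adjusted p = 0.0283). Ccnb1, cyclin B1, had -0.56 ± 0.16, and Mcm5, a subunit of the replicative helicase, -0.38 ± 0.12. The 3 became 0 without Vehicle replicates 1 or 4 or MEKi 1 replicates 1 or 3, 1 without Vehicle replicates 2 or 3, 5 without MEKi 0.3 replicate 2 and 10 without MEKi 1 replicate 2. Of 12 crypt stem and Wnt target genes, 1 fell and 0 rose, with 10 positive slopes and a median slope of 0.18. Positive slopes over all genes tested numbered 7452 of 14773. The falling member was Cd44, an adhesion receptor, with a slope of -0.53 ± 0.11, called without each library. Up to 3 members of this list rose leaving out 1 library. Of 19 genes of the unfolded protein response and amino acid stress, 2 fell and 1 rose. In lists this short, the crypt and stress counts are near the shares over all genes, 5.34% higher and 5.00% lower. Asns, asparagine synthetase, had -0.62 ± 0.19 and Ddit3, the stress factor CHOP, 0.38 ± 0.12. Of 12 smooth muscle genes, 2 rose, against 5.34% of all genes called higher. They were the myosin kinase gene Mylk and the leiomodin gene Lmod1, each at a slope of 0.38. These 4 genes lost the call without any 1 Vehicle library and without MEKi 1 replicates 1 or 3. Stress genes that fell numbered 5 without MEKi 0.3 replicate 4 and 6 without MEKi 1 replicate 2, and 4 smooth muscle genes rose without MEKi 1 replicate 2.

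Other material differed between libraries, and pancreas transcripts were high in 1 library of the dose series. Transcripts of 13 pancreas genes summed to 7870 CPM in Vehicle replicate 4 and 29.1 to 40.1 CPM in the other Vehicle libraries. The sums were 13.6 to 150 CPM in MEKi 0.3, 68.9 to 177 CPM in MEKi 1 and 342 to 477 CPM in Normal. Of 11 tested pancreas genes, 8 had a called falling slope and are counted in the 739, and without Vehicle replicate 4 none of them was called. The part of pancreas material in the other results was not tested, beyond the values without Vehicle replicate 4 given above. The balance of long and short transcripts differed between libraries. With genes in 5 bins of transcript length, the median log2 deviation of the longest bin from the mean of all 24 libraries, minus that of the shortest bin, was -0.56 to -0.30 in Vehicle libraries, -0.19 to 0.03 in MEKi 0.3 and -0.39 to 0.07 in MEKi 1. With an offset for transcript length, 1343 genes had a significant dose trend, 1227 of them among the 1528.

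The direct difference between doses had no gene past the threshold in edgeR, so the genes with the smallest p are given as values. Gabrp, an epithelial GABA receptor subunit (chr11:33550781-33578978), had 8.25, 6.91, 6.90 and 15.3 CPM in MEKi 1 and 27.0, 19.1, 25.9 and 18.7 CPM in MEKi 0.3. Vehicle libraries had 19.6, 28.7, 18.9 and 24.97 CPM, overlapping MEKi 0.3. MEKi 1 minus MEKi 0.3 was -1.32 ± 0.32 on the log2 scale, with an edgeR adjusted p of 1. Cldn4 was next at -1.07 ± 0.27. Nkg7 had 5.50, 5.23, 9.72 and 5.20 CPM in MEKi 1 and 8.84, 12.6, 11.8 and 19.4 CPM in MEKi 0.3, with a difference of -1.03 ± 0.27. Clec4e had 0.229, 2.09, 0.256 and 0 CPM in MEKi 1, 12 counts in all, and 3.99, 6.31, 2.48 and 19.6 CPM in MEKi 0.3. The haematopoietic signalling genes Hcls1, Lcp2 and Cd53 differed by -0.87, -1.01 and -0.96. Hcls1 encodes a cytoskeletal adaptor and Lcp2 the T cell adaptor SLP-76. Ppp1r13l, an inhibitor of p53, was the one higher in MEKi 1, at 15.1, 22.8, 18.4 and 18.4 CPM, against 13.5, 12.4, 8.07 and 14.3 CPM in MEKi 0.3. Among the 8 named genes, Gabrp, Cldn4, Hcls1, Clec4e and Ppp1r13l had no overlap between the doses, as did 2.06% of all genes tested. The 8 were chosen by this same difference, so their lack of overlap adds no support for it. Among the 1528 trend genes, which were chosen on the same libraries, the MEKi 0.3 difference from Vehicle was a median of 64.4% of the MEKi 1 difference, 71.0% for rising and 56.9% for falling genes.

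A last comparison asked whether MEKi 0.3 lay off the line between Vehicle and MEKi 1. No gene passed in edgeR (0%), with 449 (3.04%) at an unadjusted p under 0.05, and 1 passed in DESeq2. Banp, a nuclear matrix protein that binds DNA (chr8:121947972-122029260), had 10.3, 11.01, 9.97 and 5.08 CPM in Vehicle, 21.5, 31.4, 24.6 and 44.4 in MEKi 0.3, and 29.1, 37.9, 27.4 and 40.9 in MEKi 1. It was the single gene called in MEKi 0.3 against Vehicle, at 1.74 ± 0.25 (edgeR adjusted p = 0.00577), and its slope of 0.91 ± 0.17 was called without each library. Both doses lay above Vehicle and overlapped each other. Slc5a3, the myo-inositol transporter, had 36.2, 34.1, 47.8 and 36.4 CPM in MEKi 0.3, above 17.1, 19.9, 20.2 and 17.3 CPM in Vehicle and overlapping 32.8, 29.7, 38.6 and 29.8 CPM in MEKi 1. Hnf4g, an intestinal nuclear receptor, had 20.6, 13.3, 15.5 and 16.7 CPM in MEKi 0.3, above all Vehicle libraries at 7.23, 7.41, 7.73 and 8.32 CPM. Ndufaf1, an assembly factor of respiratory complex I, and Ppp1r13l lay below the line in MEKi 0.3, with departures of -0.50 and -0.58 on the log2 scale.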

How the data were processed

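RNA counts of 24 colon libraries were used. The authors deposited 1 table of raw counts for each sample, with 43280 gene symbols. The genome build, mm10, comes from the submitters' processing notes, and for the aligner, the counter and strand the status is "not given in the sources used here". RNA was poly(A)-selected and fragmented with RNase III, per the labels' protocols. Counts were used as deposited, and intervals and floors (3 counts) cover counting error only. Genes were tested in R 4.3.3 with edgeR 4.0.16: filterByExpr by group, TMM factors and a robust quasi-likelihood fit over the 24 libraries. The filter left 14773 genes. The dose trend used steps 0, 1 and 2, and Normal, Isotype and anti-TNF had a level each. The difference, the departure (MEKi 0.3 minus the mean of Vehicle and MEKi 1) and each dose against Vehicle came from a fit with 1 level per group. P-values were adjusted by Benjamini-Hochberg over all genes, threshold 0.05. SEs are the absolute log2 fold change over the square root of F. CPM are TMM-scaled. For the colitis score, a prior count of 2 was added before taking log2.

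Genes were named by a rule: the 8 highest and 8 lowest called slopes that average 5 CPM or more over the 12 libraries and do not overlap between MEKi 1 and Vehicle, up to 3 per list by trend p, a short fixed set, and the smallest p of the difference (8), departure (5) and full order (6), each among genes that average 5 CPM or more. Predicted, Riken and immunoglobulin segment genes were left out. The samples, lists and rule were chosen with earlier results of these data known. Alternatives were DESeq2 1.42.0, limma-voom with sample weights (limma 3.58.1, limma-voom in short), RLE factors, library totals, other filters and the 12 libraries alone. Others were the replicate number as a block, a length offset, dose in mg/kg, the table's column names and leaving out each library.

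The labels number replicates alike without saying what they share. Same-numbered MEKi 0.3 and Vehicle libraries deviated together in all 4 pairs (correlations 0.126, 0.125, 0.167 and 0.184, threshold 0.1). MEKi 1 and Vehicle did not (-0.026 to 0.066), nor did MEKi 1 and MEKi 0.3 in every pair (0.221, -0.248, 0.177 and 0.223). MEKi 0.3 replicate 2 correlated more with a Vehicle library of another number. Of the MEKi 1 libraries, only replicate 4 correlated most with its own number in MEKi 0.3. No pair of replicates agreed within sampling noise (chi-square per gene of at least 5.38). Gene coordinates are from the RefSeq annotation of GRCm38.p6, and GENCODE gave a transcript length for 14129 of the genes tested. Scripts were tested on simulated data.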

Additional observations from a re-analysis of the deposited data

Results flagged for a closer look

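A library was marked where its gap to the nearest of the other 3 in its group, over the group's range on the log2 scale, was above Dixon's critical value for 4 samples. Of 288 groups examined (the named genes and the score in 3 dose groups), 24 were marked, and chance marks about 1 in 20. MEKi 0.3 replicate 4 was the marked library in 13 of the 24. It scored 2.33 on the colitis score and had 34.2 CPM of Aif1, 24.98 of Fpr2, 149 of Cxcl16, 164 of Asns and 160 of Ccnd1, each above the other MEKi 0.3 libraries. It lay below them with 1.70 CPM of Nags, 0.728 of Abca8a, 125 of Selenbp1, 2.91 of Tnni1, 1787 of Pigr, 35.7 of Atoh1 and 490 of Adh1.

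In MEKi 1, replicate 2 stood apart with 462 CPM of Selenbp1, 5.86 of Fpr2 and 82.3 of Dusp6, replicate 3 with 9.72 CPM of Nkg7 and 1126 of H2-Ab1, replicate 4 with 57.9 CPM of Lgals1 and replicate 1 with 8.48 CPM of Areg. In Vehicle, replicate 3 stood apart with 1.25 CPM of Cyp2d12 and 103 of Gstm1, replicate 1 with 20.2 CPM of Etv4 and replicate 4 with 5.08 CPM of Banp.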

How the results depend on the processing

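The dose trend called 1528 genes, and 2369 with DESeq2, 5222 with limma-voom, 845 without a filter on low counts, 542 with dose in mg/kg, 0 under the table's column names and 112 to 2603 leaving out 1 library. The replicate block gave 1120 genes, or 1945 with the 12 libraries alone, 1094 and 1316 of them among the 1528. MEKi 1 against Vehicle called 1565, and 4808 with limma-voom, 773 without a filter, 0 under the table's names and 43 to 2369 leaving out 1 library. MEKi 0.3 against Vehicle called 1, and 93 with DESeq2, 3357 with limma-voom, 3 without a filter, 3 with the 12 libraries alone, 2 with these and the replicate block, 0 under the table's names, 0 with its 8 libraries alone, 405 with these and the replicate block, and 0 to 1130 leaving out 1 library. The blocked counts of the difference and departure stayed at 0. The difference called 2 with DESeq2 and 0 to 1 leaving out 1 library, and the departure 1 with DESeq2. The limma-voom fits also weighted each library, so the software and the weights cannot be told apart in their counts. The cause of these shifts was not tested.

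The colitis score trend was -0.82, ranged from -0.98 to -0.72 leaving out 1 library, was -1.505 per mg/kg (adjusted p = 0.0571) and reversed to 0.69 under the table's names (adjusted p = 0.457). Of the 72 called named slopes, 39 stayed past the threshold under each alternative other than leaving out a library where the gene was tested. They were not recomputed under the table's names. Named slopes without a call that changed sign were Etv5 at 0.10 with limma-voom and 0.034 with dose in mg/kg, the slope of Fos at -0.0049 with library totals, Ppp1r13l at -0.033 with limma-voom and Ndufaf1 at 0.0079 with dose in mg/kg. Leaving out 1 library, Tap1 ranged from -0.083 to 0.043, Spry4 from -0.19 to 0.031, Etv5 from -0.21 to 0.072, Fos from -0.037 to 0.078 and Ppp1r13l from -0.038 to 0.1. Totals of 3175698 to 5840995 counts limit what low genes can show.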
